A study of Homo sapiens with 6 samples.

Results

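Vimentin (VIM) and 9 transcription factors known for driving the epithelial-mesenchymal transition (EMT), namely SNAI1, SNAI2, TWIST1, TWIST2, ZEB1, ZEB2, PRRX1, FOXC2 and TCF4, were examined in ACAT2-depleted gastric cancer cells. The genes were picked by symbol from the deposited expression table, which lists 58735 genes, and all 10 were found there. The cells were HGC-27, an established human gastric carcinoma line. One group of 3 libraries came from cells transfected with pSIH-H1-Puro-shNC, the control vector, with genotype WT (shNC-1 to shNC-3). The paper names empty vectors as its negative controls and lists no control hairpin sequence. The other 3 libraries came from cells given pSIH-H1-Puro-shACAT2, labelled as ACAT2 knockdown (shACAT2-1 to shACAT2-3). Both groups were then kept under puromycin for 7 days. ACAT2 is acetyl-CoA acetyltransferase 2, an enzyme of the cytosol that joins acetyl-CoA units at the start of sterol synthesis. The labels name only the vector shACAT2, so no comparison between separate ACAT2 hairpins was made, and they do not say whether the 3 libraries of a group were separate cultures. P-values therefore measure the spread between these libraries, which may be technical.

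In EMT, epithelial cells loosen their junctions, lose E-cadherin and take on a migratory form with a vimentin cytoskeleton. SNAI1, SNAI2, ZEB1 and ZEB2 are zinc finger proteins that bind E-box sequences and repress E-cadherin and other junction genes. TWIST1, TWIST2 and TCF4 are basic helix-loop-helix proteins that pair with each other or with other partners, PRRX1 is a homeobox factor and FOXC2 is a forkhead factor. ZEB1, ZEB2 and the miR-200 family of microRNAs repress each other, so that epithelial cells keep miR-200 high and ZEB low. The study immunoblotted vimentin, snail2, SMA and the E- and N-cadherins as EMT indicators in HGC-27 and AGS cells. After ACAT2 knockdown it reported more E-cadherin protein and less snail2, SMA, vimentin and N-cadherin. The mRNAs of these 5 proteins (VIM, SNAI2, ACTA2, CDH1 and CDH2) are described here, and protein was not measured in these files.

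Promoter and mature microRNA sequences are shown first, both as RefSeq gives them on build GRCh38.p14. Promoters were listed for 6 of the 10 genes, VIM, TWIST2, ZEB1, ZEB2, PRRX1 and TCF4. The E-box bound by the SNAI and ZEB proteins (CAGGTG on either strand, so CAGGTG or CACCTG) was searched in the 250 bases before each start, and 17.5% of 35116 promoters held it. The VIM promoter (chr10:17227991-17228240, plus strand) had no such match in this window, and its capitals mark the single GC box (GGGCGG or CCGCCC, present in 42.6% of promoters), 46 bases before the start. Of 7 listed starts of ZEB1, 2 had the E-box, and the window with the most (chr10:31318966-31319215, plus strand) is shown with its 2 matches in capitals. The E-box was absent from the 1 listed start each of TWIST2, ZEB2 and PRRX1 and from all 10 of TCF4. A match in these letters is a description and not a bound site.
VIM promoter: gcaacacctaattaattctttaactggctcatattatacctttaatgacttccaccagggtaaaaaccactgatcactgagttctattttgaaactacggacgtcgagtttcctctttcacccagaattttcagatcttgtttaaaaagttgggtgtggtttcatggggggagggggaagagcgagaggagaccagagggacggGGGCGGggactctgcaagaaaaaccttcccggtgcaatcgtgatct
ZEB1 promoter: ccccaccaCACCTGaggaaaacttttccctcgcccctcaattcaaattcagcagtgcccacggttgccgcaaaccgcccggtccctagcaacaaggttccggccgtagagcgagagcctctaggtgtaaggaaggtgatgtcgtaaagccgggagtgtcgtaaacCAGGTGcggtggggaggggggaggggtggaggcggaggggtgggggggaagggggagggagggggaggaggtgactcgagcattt

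The mature miR-200 family and miR-205 are shown because ZEB1 and ZEB2 are their textbook targets, with the seed (bases 2 to 8) in capitals. miR-200b, miR-200c and miR-429 share the seed AAUACUG, whereas miR-200a and miR-141 share AACACUG.
miR-200b-3p: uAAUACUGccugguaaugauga
miR-200c-3p: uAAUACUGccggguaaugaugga
miR-429: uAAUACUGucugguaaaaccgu
miR-200a-3p: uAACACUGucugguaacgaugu
miR-141-3p: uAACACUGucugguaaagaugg
miR-205-5p: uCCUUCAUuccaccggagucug

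In the longest annotated 3′ untranslated region of each gene (GENCODE release 29), the match to the first seed, CAGTATT on the sense strand, occurred 6 times in the 2549 bases of ZEB1 and 5 times in the 5370 bases of ZEB2. SNAI2 and TCF4 each held 1 such match, and VIM, SNAI1, TWIST1, TWIST2, PRRX1 and FOXC2 held none. Over 19120 protein-coding genes, whose median length of this region was 1104 bases, 16.0% held at least 1 match. The CAGTGTT match for miR-200a and miR-141 occurred 3 times in ZEB1, 4 times in ZEB2 and 2 times in TCF4, and 18.3% of these genes held it. The ATGAAGG match for miR-205 occurred 1 time in ZEB1 and was absent from ZEB2 and the other members, while 11.7% of the protein-coding genes held it. The first match of each ZEB gene is shown in capitals within its surrounding bases, at chr10:31527622-31527643 on the plus strand for ZEB1 and chr2:144389049-144389070 on the minus strand for ZEB2 (GRCh38).
ZEB1 site: ttttatcttatCAGTATTatca
ZEB2 site: ctaccatacatCAGTATTttta

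Values were deposited as FPKM, fragments per kilobase of gene scaled to the depth of the library. The gene length counts every annotated exon base, such as 27828 for TCF4 and 25058 for ZEB2. Levels set side by side between genes therefore also depend on these lengths. Each library held 14086416 to 16067486 fragments on genes, and the whole fragment counts behind every value could be recovered. The values of a group are given below in the order of replicates 1 to 3. Knockdown of the target was measured first. ACAT2 read 14.2, 11.7 and 12.7 FPKM in shNC and 6.19, 5.46 and 6.05 FPKM in shACAT2, so the groups did not overlap. Its log2 fold change was -1.01 ± 0.10 (SE), with an adjusted p of 0.0059 by limma, and 0.051 without shNC-3. ACAT2 shares 397 exonic bases with TCP1 on the opposite strand, which averaged 78.3 FPKM over the 6 libraries. Strand was not stated for the counting, so reads there cannot be told apart. SOD2 and SOD2-OT1, also opposite, share 1141 and 1458 exonic bases with ACAT2 and averaged 0.0241 and 0 FPKM.

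The labelled tissue is stomach. Of 10 gastric epithelial markers (EPCAM, KRT8, KRT18, KRT19, CDH1, TFF1, TFF2, MUC5AC, MUC6 and GKN1) none reached a mean of 1 FPKM, TFF1 and GKN1 were at 0 in every library, and their summed level was 0.556 to 1.04 FPKM in shNC and 1.48 to 2.51 FPKM in shACAT2. KRT18, a keratin of simple epithelia, had no fragment in 5 libraries and 2 in shACAT2-3. Of 8 fibroblast markers, 6 reached a mean of 1 FPKM, and their sum was 306 to 341 FPKM in shNC and 444 to 537 FPKM in shACAT2. Both sums were therefore higher in shACAT2, but not through every marker. CDH1 alone made up 0.608 to 1.15 FPKM of the gastric sum in shACAT2, and 0.120 to 0.222 FPKM in shNC. Of the 6 tested fibroblast markers, 5 had all shACAT2 values above shNC and 1 had all below. Of all 13832 genes tested, 2239 had all above and 2011 had all below. The part of these markers in the results below was not tested. Endothelial markers summed to at most 0.569 FPKM and blood cell markers to at most 9.15 FPKM. In bulk RNA, fewer cells of a kind and less RNA per cell cannot be told apart.

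Several libraries stood apart. The pair shNC-2 and shNC-3 differed by a chi-square of 1.73 per gene, above sampling noise, whereas the other pairs within a group differed by 12.1 to 46.0. shACAT2-3 had fragments in 7477 genes that were silent in the other 5 libraries, against 416 to 657 such genes elsewhere. Levels also followed the GC content of the transcript. With the tested genes split into 10 bins by GC content, the median deviation from the gene mean in the most AT-rich bin was -0.19 in shNC-1 and -0.17 in shACAT2-1 on the log2 scale. In the most GC-rich bin it was 0.34 in shACAT2-1 and -0.30 in shACAT2-3. ZEB1, ZEB2, TCF4, PRRX1 and SNAI2 have 38.2% to 41.4% GC in their longest transcript, VIM 46.9%, TWIST1 57.2% and SNAI1 58.2%. Apart from the fit after GC centring, the part of this trend in the values of single genes was not tested.

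**Figure D1:**
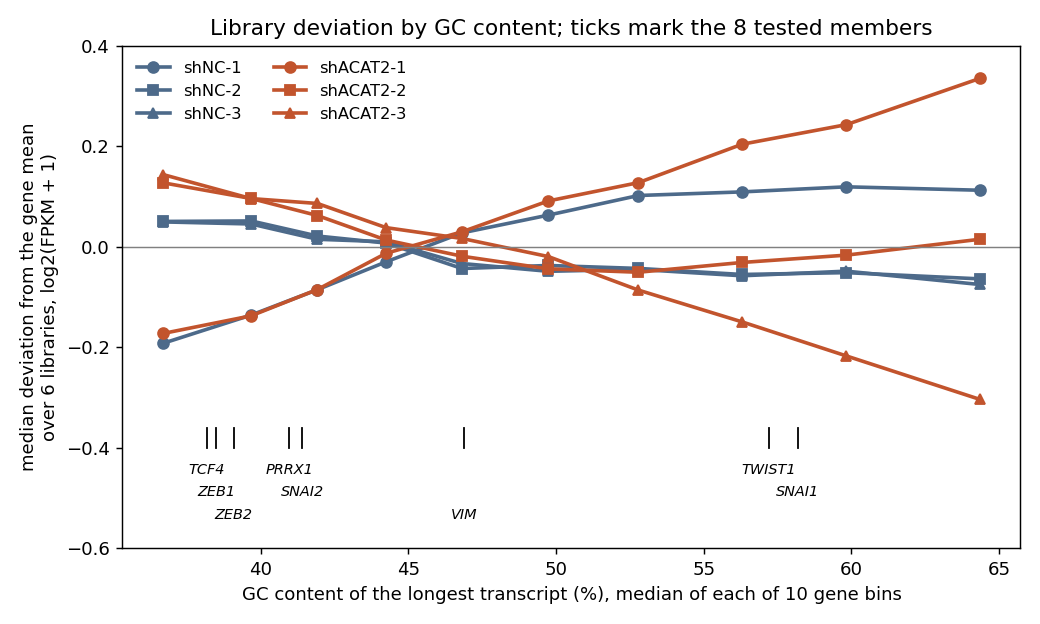
Median deviation of each library from the gene mean over the 6 libraries, in log2(FPKM + 1), against transcript GC content (%), for 10 bins of the tested genes. shNC-1 and shACAT2-1 (circles) start at -0.19 and -0.17 in the AT-rich bin, and in the GC-rich bin shACAT2-1 ends at 0.34 and shACAT2-3 at -0.30. Ticks mark the GC content of the 8 tested members.

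Of the 10 genes, 8 reached a mean of 1 FPKM in a group and were tested, and TWIST2 and FOXC2 did not. At an adjusted p below 0.05 (limma on log2(FPKM + 1), adjusted over 13832 genes) 1 of the 8, SNAI2, rose after ACAT2 knockdown and none fell. Over all genes tested 5.10% were called, and 3.30% were called as higher in shACAT2. In 3 of the 8, VIM, SNAI1 and SNAI2, all 3 shACAT2 values were above all 3 shNC values, which held for 16.2% of all genes tested. With the replicate number as a block, a pairing that the labels do not state, the same 3 genes were called, beside 12.5% of all genes. The median log2 fold change of the 8 was 0.18, and that of all genes tested was 0.02.

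**Figure D2:**
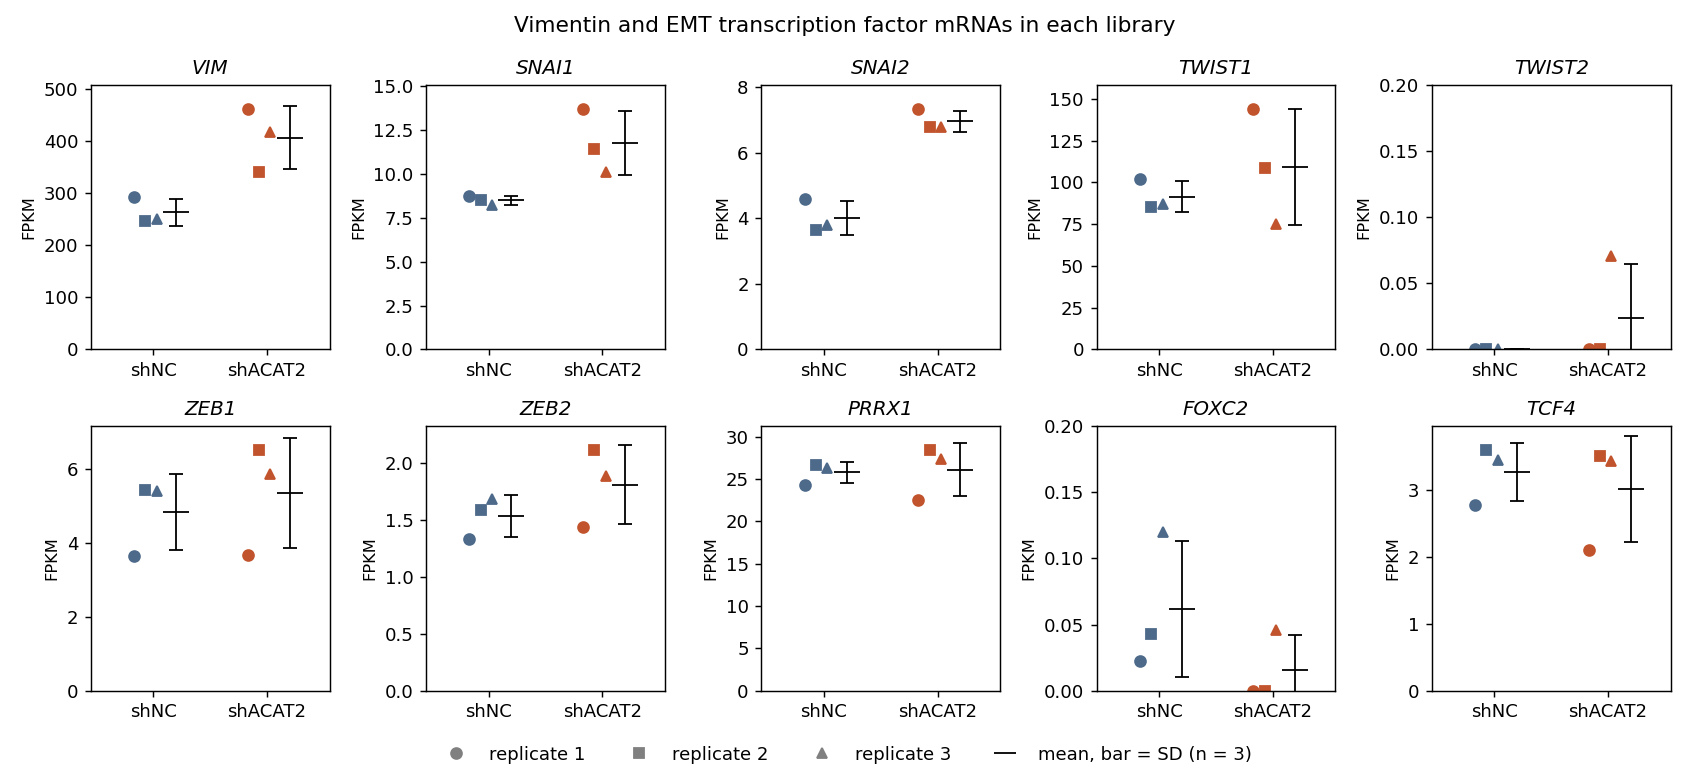
FPKM of each of the 10 genes in the 3 shNC (blue) and 3 shACAT2 (orange) libraries, each axis starting at 0. Symbols stand for replicate numbers, and the black line and bar give the mean and SD (n = 3). VIM, SNAI1 and SNAI2 show no overlap of the groups, and TWIST2 and FOXC2 stay at or below 0.120 FPKM.

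VIM encodes the intermediate filament protein of mesenchymal cells and lies at chr10:17228259-17237593 (hg38, plus strand). It read 292, 246 and 251 FPKM in shNC and 461, 340.5 and 417 FPKM in shACAT2. The lowest shACAT2 library was above the highest shNC library. VIM was the most abundant of the 10 genes in every library, ranking between 48 and 95 among all genes. The mean went from 263 ± 25.6 to 406 ± 61.0 FPKM (SD, n = 3), a ratio of 1.54. On the log2 scale the fold change was 0.62 ± 0.15 (SE) with a 95% interval of 0.27 to 0.97, and the adjusted p of 0.063 missed the threshold. It passed with the replicate block (adjusted p = 0.027). It also passed with limma-voom on the recovered fragments (0.031), with library-size scaling (0.042) and after centring by GC content (0.020), the last chosen after seeing the data. Leaving out each library in turn gave adjusted p-values of 0.077 to 0.249. The exact two-sided permutation test gave p = 0.1, the smallest that 3 against 3 libraries allow.

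Reads from VIM exons could come in part from an antisense partner. VIM-AS1 shares 641 of the 5158 exonic bases of VIM, and it read 0.873 to 1.30 FPKM over the 6 libraries, far under VIM itself. Here the log2 fold change was 0.16 (adjusted p = 0.50).

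SNAI2 (also called Slug, or snail2), on chromosome 8, represses E-cadherin and desmosomal genes and was the only one of the 8 to pass. It read 4.60, 3.66 and 3.80 FPKM in shNC, from 239, 201 and 222 fragments. In shACAT2 it read 7.34, 6.79 and 6.78 FPKM, from 378, 383 and 345 fragments. The groups were well apart, with the highest shNC library at 4.60 and the lowest shACAT2 library at 6.78. That is a log2 fold change of 0.67 ± 0.10 (SE; 95% interval 0.43 to 0.91), with an adjusted p of 0.018, which was also 0.018 with the block. The direction held in every alternative. The call was lost without shNC-2 (adjusted p = 0.105), without shNC-3 (0.112), without shACAT2-2 (0.079), when the similar pair shNC-2 and shNC-3 was averaged into 1 library (0.109) and with no filter on low genes (0.062).

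SNAI1 (Snail), the related zinc finger repressor at chr20:49982999-49988886, followed the same order. It read 8.76, 8.52 and 8.22 FPKM in shNC and 13.7, 11.4 and 10.1 FPKM in shACAT2. Its shNC libraries were tight, while the shACAT2 libraries spread by more than 3 FPKM without reaching the shNC range. The log2 fold change was 0.42 ± 0.12 (SE; 95% interval 0.13 to 0.70), and the adjusted p was 0.102. It was 0.049 with the replicate block and 0.0082 after GC centring, and 0.059 to 0.307 when a library was left out. In FPKM, SNAI1 was the higher of the pair throughout, at 1.49 to 2.33 times SNAI2. Its fragments were 226 to 351 and those of SNAI2 201 to 383, over lengths of 1686 and 3392 bases.

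TWIST1, a helix-loop-helix factor of mesoderm and neural crest (chr7:19020991-19117672), was the most abundant of the 9 factors in every library and made up 57.4% to 73.9% of their summed FPKM. It read 102, 85.0 and 87.2 FPKM in shNC and 144, 109 and 74.9 FPKM in shACAT2. The shACAT2 libraries held both the highest and the lowest value of the 6. On the log2 scale the fold change was 0.21 ± 0.23 (SE; 95% interval -0.34 to 0.76; adjusted p = 0.64), and without shACAT2-1 it was -0.015. The order of the shACAT2 libraries was that of the GC-rich genes in the plot by GC content. TWIST2, its close relative (chr2:238848032-238910543), had no fragment in 5 libraries and 2 in shACAT2-3. At the rate of fragments in genes silent elsewhere, 1.39 would fall on a gene of its length in that library. A count of 0 allows a level of up to 0.0927 to 0.105 FPKM in those 5 libraries, for counting error only.

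PRRX1, a homeobox factor of limb and connective tissue mesenchyme (chr1:170662728-170739419), ranked after VIM and TWIST1. It read 24.3, 26.7 and 26.3 FPKM in shNC and 22.6, 28.4 and 27.3 FPKM in shACAT2. The shNC values lay inside the shACAT2 range. That is a log2 fold change of 0.01 ± 0.12 (SE; 95% interval -0.27 to 0.29; adjusted p = 0.96), and its sign turned under both other scalings (-0.045 and -0.039), after GC centring (-0.025), and without shNC-1 (-0.028), shACAT2-2 (-0.050) or shACAT2-3 (-0.023).

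ZEB1 (chr10:31318495-31529814) and ZEB2 (chr2:144364364-144524583) are large zinc finger repressors of E-cadherin and of the miR-200 genes. ZEB1 read 3.66, 5.44 and 5.40 FPKM in shNC and 3.66, 6.51 and 5.86 FPKM in shACAT2. Replicate 1 of both groups was low and the other 4 libraries were higher. Its log2 fold change was 0.11 ± 0.21 (SE; 95% interval -0.39 to 0.61; adjusted p = 0.80), and -0.047 without shNC-1 and -0.029 without shACAT2-2. ZEB2 read 1.33, 1.59 and 1.69 FPKM in shNC and 1.44, 2.11 and 1.89 FPKM in shACAT2, again with replicate 1 lowest in each group. Here the log2 fold change was 0.14 ± 0.13 (SE; 95% interval -0.17 to 0.46; adjusted p = 0.57). In FPKM, ZEB1 stood at 2.55 to 3.43 times ZEB2. Their fragments were similar, 481 to 936 and 510 to 880, and the lengths used were 8650 and 25058 bases. MIR200CHG, a host transcript within the miR-200 family, had 1 fragment in shACAT2-1 and shACAT2-3 and none in the others. Over its length of 350 bases, a count of 0 allows up to 0.497 to 0.560 FPKM, for counting error only. Mature microRNAs were not measured.

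TCF4 (chr18:55222331-55664787), an E protein that can pair with TWIST proteins, read 2.78, 3.60 and 3.45 FPKM in shNC and 2.11, 3.51 and 3.43 FPKM in shACAT2. It was the only tested gene of the 8 with a negative log2 fold change, -0.11 ± 0.17 (SE; 95% interval -0.50 to 0.29; adjusted p = 0.75), and without shACAT2-1 this became 0.069. FOXC2 (chr16:86566829-86569728), a forkhead factor of vessels and mesenchyme, had 1, 2 and 6 fragments in shNC and 0, 0 and 2 in shACAT2, or at most 0.120 FPKM. In shACAT2-3 the rate of silent genes gives 2.15 fragments for its length. Neither TWIST2 nor FOXC2 was tested, and at these counts a difference was not detectable.

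**Figure D3:**
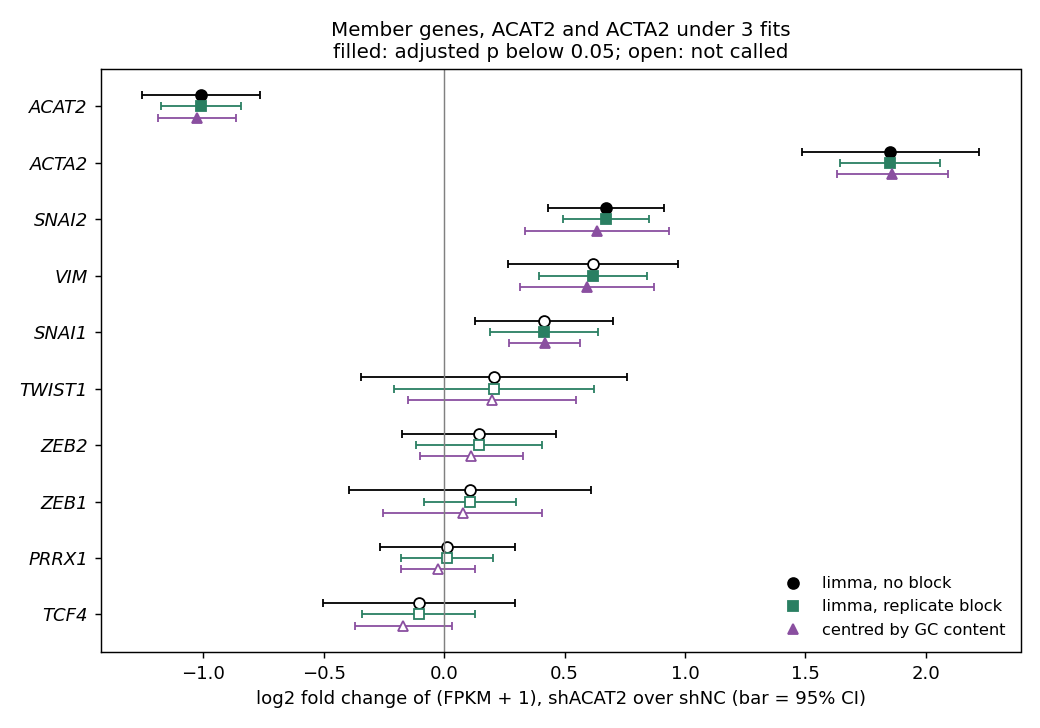
Log2 fold change of (FPKM + 1), shACAT2 over shNC, with 95% intervals for ACAT2, ACTA2 and the 8 tested members, from limma without a block (black), with the replicate block (green) and after GC centring (purple). Filled symbols have an adjusted p below 0.05: ACAT2, ACTA2 and SNAI2 are filled in all 3 fits, VIM and SNAI1 only with the block or GC centring, and the intervals of the other 5 cross 0.

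In shNC the order of mean levels was VIM (263), TWIST1 (91.4), PRRX1 (25.8), SNAI1 (8.50), ZEB1 (4.83), SNAI2 (4.02), TCF4 (3.28) and ZEB2 (1.53 FPKM), and only ZEB1 and SNAI2 overlapped as neighbours. In shACAT2 the order was VIM (406), TWIST1 (109), PRRX1 (26.1), SNAI1 (11.8), SNAI2 (6.97), ZEB1 (5.35), TCF4 (3.02) and ZEB2 (1.81 FPKM). SNAI2 thus stood above ZEB1 there without overlap, and TCF4 and ZEB2 overlapped. Both orders are of FPKM and depend on the gene lengths used.

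The 8 genes fell into sets by their pattern over the 6 libraries, given here as a description since libraries and their GC trend are shared. VIM correlated with SNAI2 (Pearson r = 0.95) and SNAI1 (r = 0.88), and SNAI1 with SNAI2 (r = 0.90). The AT-rich genes ZEB1 and PRRX1 (r = 0.96), PRRX1 and TCF4 (r = 0.94) and ZEB1 and ZEB2 (r = 0.93) also ran together, and TWIST1 ran against TCF4 (r = -0.83). The 5 tested genes most like VIM over the 6 libraries were MRPS6, NPC2, MCTS1, TPM3 and WDR45B, each at r = 0.996 or 0.997. Those most like SNAI2 were CPT1A (r = 0.998), PCYT1A, MN1, RWDD4 and SPTAN1 (r = 0.996 to 0.997).

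The mRNAs of the 5 immunoblotted EMT proteins were then set side by side. ACTA2, smooth muscle actin (chr10:88935074-88991339), read 4.44, 3.73 and 3.16 FPKM in shNC and 19.7, 14.3 and 14.9 FPKM in shACAT2. Every shACAT2 library was more than 3 times the highest shNC library. Its log2 fold change of 1.85 ± 0.16 (SE; adjusted p = 0.0035) was the highest among all list genes called, and it stayed called when any library was left out. ACTA2 shares 380 exonic bases with FAS on the opposite strand.

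CDH1, E-cadherin (chr16:68737225-68835548), stayed low in every library but differed between groups. It read 0.222, 0.120 and 0.141 FPKM in shNC, from 21, 12 and 15 fragments. In shACAT2 it read 0.608, 0.828 and 1.15 FPKM, from 57, 85 and 107 fragments, all above the shNC libraries. The ratio of means was 5.36, and the rate of silent genes accounts for 4.59 of the 107 fragments in shACAT2-3. CDH1 was under the filter on low genes and had no call. Its log2 fold change of 0.67 on the log2(FPKM + 1) scale had an adjusted p of 0.0099 under a filter of 10 fragments per library, 0.065 with a mean of at least 0.5 FPKM and 0.167 with no filter. CDH2, N-cadherin, had 2 fragments in each shNC library and 0, 0 and 6 in shACAT2, where the rate of silent genes gives 3.68 for the last, so no difference was detectable. Of the 5 mRNAs, SNAI2 and ACTA2 were called higher. VIM was higher in 3 of 3 libraries but called only under the alternatives above. CDH1 was also higher in 3 of 3 libraries and passed only under the filter of 10 fragments per library. CDH2 had no call. None of the 5 had all its shACAT2 values below shNC. In direction, CDH1 mRNA went with the protein change that the study reported, and VIM, ACTA2 and SNAI2 mRNA went the other way. These are mRNA levels set beside protein, and the reason for the difference was not tested.

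**Figure D4:**
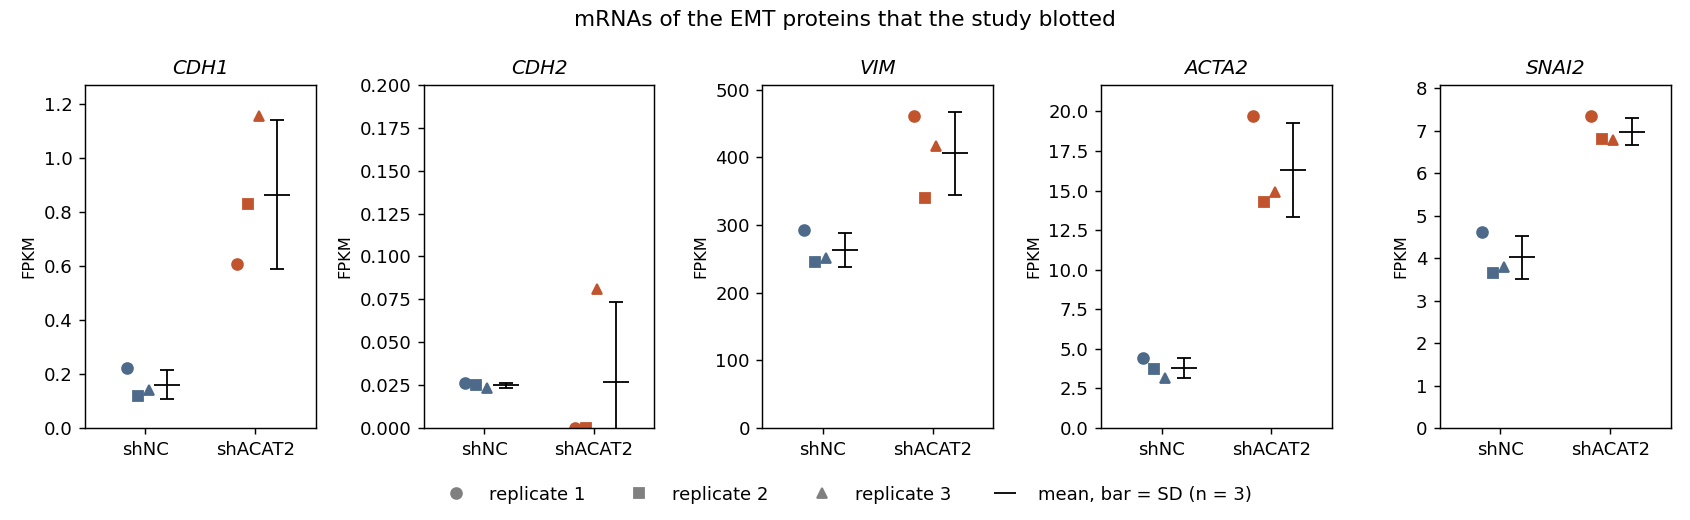
FPKM of CDH1 (E-cadherin), CDH2 (N-cadherin), VIM (vimentin), ACTA2 (SMA) and SNAI2 (snail2) in each library, with mean and SD (n = 3), each axis starting at 0. The shACAT2 libraries are above all shNC libraries for CDH1, VIM, ACTA2 and SNAI2, and CDH2 stays at or below 0.0808 FPKM.

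Wider EMT gene lists were described by their counts. Over 11 lists, which also hold VIM and SNAI2, 25 of 135 tested genes (18.5%) were called, 22 higher and 3 lower. Over all genes tested 5.10% were called and 3.30% were called as higher, with a median log2 fold change of 0.02. The count fell to 12, 7 and 6 when shNC replicate 1, 2 or 3 was dropped and to 9 without shACAT2-2, as that of all genes fell from 706 to 135, 101, 63 and 129. With the replicate block it was 39, beside 12.5% of all genes.

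Among 22 other EMT transcription factors 13 were tested and 4 were called (30.8%, beside 5.10% of all genes), all higher. Their median log2 fold change over the 13 was 0.31. MSX2, a homeobox factor of skull and limb, read 74.7, 64.6 and 62.7 FPKM in shNC and 168, 129.6 and 121 FPKM in shACAT2. The log2 fold change was 1.03 ± 0.15 (SE; adjusted p = 0.017). The ETS family factor ETS2 (0.74), the forkhead factor FOXC1 (0.54) and the T-box factor TBX3 (0.52) also rose. Without shNC-2, shNC-3 or shACAT2-2 none of the 4 was called, and without shNC-1 there was 1 call in this list. PRRX2, the paralogue of PRRX1 and the highest of those not called, read 78.7, 73.0 and 65.1 FPKM in shNC and 164, 114 and 64.8 FPKM in shACAT2, which overlapped (log2 fold change 0.56, adjusted p = 0.33). MSX1 (0.61, adjusted p = 0.17) and FOXM1 (0.18, adjusted p = 0.40) did not pass.

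TWIST and TCF4 proteins act as dimers with E proteins, and ID proteins block them by pairing without binding DNA. ID2 rose from 22.6, 19.0 and 20.2 FPKM in shNC to 46.1, 37.3 and 46.5 FPKM in shACAT2. The groups did not overlap, and the log2 fold change was 1.03 ± 0.13 (SE; adjusted p = 0.011; lost without shNC-2 or shNC-3). ID1 (0.56, adjusted p = 0.17) and ID3 (0.41, adjusted p = 0.32) were not called. The E protein TCF3 read 79.6 to 120.4 FPKM with a log2 fold change of -0.02 (adjusted p = 0.96). TCF4 was at 0.0175 to 0.0432 times its FPKM, over a gene length of 27828 bases. In all 1 of 5 tested genes of this list was called.

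Of 18 epithelial gatekeeper factors, which hold the epithelial state against EMT, only KLF5, KLF4 and FOXA1 were tested. KLF5, a Krüppel-like factor of gut epithelium, read 10.7, 12.3 and 11.5 FPKM in shNC and 25.7, 29.2 and 30.4 FPKM in shACAT2. The shACAT2 libraries were all more than 2 times the shNC libraries. On the log2 scale the fold change was 1.24 ± 0.11 (SE; adjusted p = 0.0040), called also when any library was left out. KLF4 (-0.17, adjusted p = 0.41) and FOXA1 (-0.11, adjusted p = 0.69) were not called, and FOXA2 was under the filter at 0.277 to 0.778 FPKM. GRHL2, a defining factor of epithelia, had no fragment in any shNC library and 1, 0 and 6 in shACAT2. In shACAT2-3 the rate of silent genes gives 4.50 fragments for its length. GRHL2 was not tested.

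Corepressors of the SNAI, ZEB and TWIST proteins were all measured, and 2 of 23 were called (8.70%, beside 5.10% of all genes). AJUBA, a LIM protein that links SNAI proteins to repressive enzymes, read 13.4, 12.1 and 11.6 FPKM in shNC and 30.5, 25.1 and 23.3 FPKM in shACAT2, with a log2 fold change of 1.03 ± 0.13 (SE; adjusted p = 0.011; lost without shNC-2, shNC-3 or shACAT2-2). PARP1, the poly(ADP-ribose) polymerase of DNA repair, went the other way, from 87.9, 79.3 and 78.1 FPKM to 38.0, 34.2 and 33.8 FPKM. Its log2 fold change was -1.19 ± 0.11 (SE; adjusted p = 0.0044), called when any library was left out. SMARCA4 (0.08), WDR5 (0.15) and HDAC1 (-0.20), the most abundant of the others, did not pass. With the block 4 of the 23 were called, beside 12.5% of all genes.

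Genes that set the turnover of the SNAI, TWIST and ZEB proteins gave 1 call among 24 tested (4.17%), near the 5.10% of all genes. LATS2, a kinase of the Hippo pathway that can phosphorylate SNAI1, read 4.40, 4.28 and 3.78 FPKM in shNC and 7.01, 8.41 and 7.84 FPKM in shACAT2. That is a log2 fold change of 0.76 ± 0.10 (SE; adjusted p = 0.012), lost when any shNC library or shACAT2-2 was left out. USP10 (-0.05), OTUB1 (0.12) and CTDSP2 (-0.07) did not pass. With the block 3 of the 24 were called, which was near the 12.5% of all genes.

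Among signals that induce EMT 4 of 18 tested genes were called (22.2%, beside 5.10% of all genes), all higher, with a median of 0.19. TGFB2, a TGF-beta ligand, read 1.67, 1.75 and 2.03 FPKM in shNC and 3.62, 4.40 and 4.23 FPKM in shACAT2 (log2 fold change 0.85 ± 0.11 SE, adjusted p = 0.011). TGFB3 (0.57), SMAD7, the inhibitory SMAD that TGF-beta itself induces (0.60), and the ligand WNT5A (0.70) also rose. None of these 4 calls was left when any shNC library or shACAT2-2 was dropped. TGFB1 (0.48, adjusted p = 0.15, and 0.047 with the block), HIF1A (-0.04) and CTNNB1 (0.14) were the most abundant not called.

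The other intermediate filaments and their linkers gave no call among 10 tested genes by limma, 2 at an unadjusted p below 0.05, and 1 with the block. Over all 13832 genes tested, 5.10% were called by limma, 3253 had an unadjusted p below 0.05, and 12.5% were called with the block. LMNB2 (-0.24), LMNA (0.62, adjusted p = 0.19) and LMNB1 (-0.16), the lamins of the nuclear envelope, were the most abundant. Nestin (NES) read 13.8 to 15.3 FPKM in shNC and 12.5 to 20.7 FPKM in shACAT2. Desmin (DES) stayed under 0.73 FPKM, and VIM was above every gene of this list in every library.

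Mesenchymal effector genes were the list with the most calls, 8 higher and none lower among 23 tested (34.8%, beside 5.10% of all genes). Their median log2 fold change was 0.47. SPARC, a secreted matrix protein, read 33.8, 27.5 and 29.6 FPKM in shNC and 68.1, 54.5 and 60.2 FPKM in shACAT2. TAGLN, an actin-binding protein of smooth muscle, read 1.80, 1.51 and 1.36 FPKM in shNC and 8.17, 6.07 and 4.25 FPKM in shACAT2. The groups did not overlap for either gene, and the log2 fold changes were 0.98 ± 0.13 (adjusted p = 0.012) and 1.45 ± 0.20 (SE; adjusted p = 0.014). The adhesion protein L1CAM, whose mean went from 3.23 to 8.79 FPKM, the hyaluronan receptor CD44 (log2 fold change 0.87), the collagen crosslinking enzyme LOX (1.04), the collagen COL1A1 (0.97), the proteoglycan LUM (0.64) and ACTA2 (1.85) made up the rest. COL3A1 (0.47, adjusted p = 0.092), POSTN (-0.17) and S100A4 (0.87, adjusted p = 0.073) were the most abundant not called. The list gave 13 calls with the block, beside 12.5% of all genes. Dropping shNC replicate 1, 2 or 3 left 5, 4 and 3 calls and dropping shACAT2-2 left 5, and ACTA2, CD44 and L1CAM were called without any library. LUM and COL1A1 are also among the fibroblast markers, of which 3 of 6 tested were called with DCN (0.54), or 6 of 6 with the block, where PDGFRA was the only gene that fell.

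Of 37 epithelial effector genes 11 were tested, with a median log2 fold change of -0.15, and 2 were called (18.2%, beside 5.10% of all genes). DSP, desmoplakin of the desmosome, read 3.59, 4.71 and 4.63 FPKM in shNC and 0.659, 1.13 and 0.951 FPKM in shACAT2. The groups did not overlap, and the log2 fold change was -1.47 ± 0.14 (SE; adjusted p = 0.0052), called when any library was left out. MUC1, a membrane mucin, rose from 1.99, 2.05 and 2.23 FPKM to 3.38, 3.78 and 3.40 FPKM (log2 fold change 0.55 ± 0.09 SE, adjusted p = 0.025), a call lost when any shNC library or shACAT2-2 was left out. The catenin CTNND1 (-0.23), TJP1 of tight junctions (-0.29) and cingulin CGN (-0.15) did not pass.

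Of the neighbours and copies of the 10 genes, FENDRR, a long non-coding RNA gene next to the FOXF1 gene and near FOXC2, fell from 7.24, 6.84 and 7.11 FPKM in shNC to 4.81, 4.93 and 4.74 FPKM in shACAT2. The log2 fold change was -0.47 ± 0.08 (SE; adjusted p = 0.025), lost when any shNC library or shACAT2-2 was left out. ZEB1-AS1, which shares 366 exonic bases with ZEB1, read 1.57, 1.64 and 1.65 FPKM in shNC and 1.08, 1.40 and 1.46 FPKM in shACAT2 (log2 fold change -0.18, adjusted p = 0.40). ZEB2-AS1, FOXC2-AS1, TCF4-AS1, TCF4-AS2 and SNAI1P1 stayed at or below 0.505 FPKM. AC003986.2 shares 141 exonic bases with TWIST1 and averaged 2.85 FPKM.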

How the data were processed

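RNA-seq was run on 6 HGC-27 libraries, 3 per group. The authors deposited FPKM per gene on hg38 with gene lengths, and the submitters' processing notes name HISAT2 2.0.5 and featureCounts 1.5.0-p3. All 6 columns were mapped by their labels. Gene models matched GENCODE release 29. Fragments were recovered as FPKM times length over the value of 1 fragment (100% whole within 0.02). Genes whose mean reached 1 FPKM in shNC or in shACAT2 were tested with limma 3.58.1 (trend) in R 4.3.3 on log2(FPKM + 1), 3 shACAT2 against 3 shNC, with Benjamini-Hochberg adjustment and a call below 0.05. The pseudocount of 1 understates changes of low genes, and FPKM was not corrected for GC content.

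Members and gene lists were chosen with earlier results of these data known, so their counts are descriptions. Named genes were the members, ACAT2, called list genes, the up to 3 most abundant others of each list, and the 5 most like VIM and SNAI2. Same-numbered libraries deviated together (r = 0.44, 0.13 and 0.17), and the replicate number was tried as a block. The labels state no pairing, and these values do not establish one. Of the 6 crossed pairs, shNC-2 with shACAT2-3 (0.20) and shNC-3 with shACAT2-2 (0.14) were also positive, and the 4 others lay at -0.31 to -0.22. Alternatives covered scaling, filters, pseudocount, limma-voom, each library left out, shNC-2 and shNC-3 averaged, and GC centring. Figures were drawn with matplotlib 3.10.9.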

Additional observations from a re-analysis of the deposited data

How the results depend on the processing

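The number of the 10 genes called was 1, and it was 2 with library-size scaling, 2 with limma-voom, 3 after GC centring, 0 with no filter, 0 when the pair shNC-2 and shNC-3 counted as 1 library, and 0 at an unadjusted p below 0.05 with a log2 fold change beyond 1. With the replicate block, a pairing that the labels do not state, it was 3, with VIM at 0.62 and SNAI1 at 0.42 now called. The block also called 1727 of all genes and 39 list genes. VIM also passed with library-size scaling (log2 fold change 0.57), limma-voom (0.62) and GC centring (0.59), as SNAI1 did with GC centring (0.42). SNAI2 was not called with no filter (0.67) or with the averaged shNC libraries (0.63). PRRX1 turned sign with upper-quartile scaling (-0.045), library-size scaling (-0.039) and GC centring (-0.025). All genes called went from 706 to 209 with no filter, 83 with the averaged libraries, 2244 with GC centring and 207 by the unadjusted rule, and list genes called from 25 to 15, 7 and 46. Calls that were higher made up 64.6% of all calls, and 54.4% with upper-quartile and 54.9% with library-size scaling. Leaving out each library in turn gave log2 fold changes of -1.07 to -0.94 for ACAT2, 0.52 to 0.74 for VIM, 0.31 to 0.51 for SNAI1, 0.62 to 0.75 for SNAI2, -0.015 to 0.45 for TWIST1, -0.047 to 0.32 for ZEB1, 0.068 to 0.24 for ZEB2, -0.050 to 0.11 for PRRX1 and -0.20 to 0.069 for TCF4. It gave 0 to 1 members, 63 to 862 of all genes and 6 to 32 list genes called. Fits with fewer libraries have fewer degrees of freedom. Without shACAT2-1 or shACAT2-3, 862 and 704 of all genes were called, and 63 to 135 without any other library. The cause of these changes was not tested. Of 25 other called list genes, 6 (ACTA2, CD44, DSP, KLF5, L1CAM and PARP1) were called without any library, and none turned sign. The blocked fit lost none of these 25 calls. Groups of 3 libraries limit all of these comparisons, and depth limits TWIST2, FOXC2 and CDH2.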
